A study of Mus musculus with 11 samples.

Results

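The hyaluronan link proteins, lecticans and tenascins were followed as 10 genes: the link proteins Hapln1, Hapln2, Hapln3 and Hapln4, the lecticans Acan, Bcan, Ncan and Vcan, and the tenascins Tnc and Tnr. They are 10 of the 24421 entries in each deposited table, and all 10 passed the filter on low values that left 13875 genes for testing. The list was chosen by gene family, and it was chosen with the measured level of Hapln1 in brainstem known to be low. The brainstem values of the members are therefore a description with no test of their own. The levels of Hapln1 were tested only between regions other than brainstem. Where another region was tested against the mean of the rest, that mean included brainstem. The filter counts samples with enough reads, so a gene could pass it through the regions where it is high.

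The cells were green fluorescent cells sorted by flow cytometry from Aldh1l1-eGFP mice, in which the astrocyte gene Aldh1l1 drives the reporter. All mice were 16 weeks old and on the C57BL/6 strain, and none of the groups had a treatment or a deletion. The olfactory bulb (OB), hippocampus (HC) and brainstem (BS) had 3 samples each and the cortex (CX) had 2. Nothing in the labels says whether samples came from separate animals, so every p-value measures only the spread between these samples, which may be technical.

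Lecticans are proteoglycans that carry chondroitin sulfate chains and bind hyaluronan through their N-terminal domain. Link proteins clamp that binding, and tenascins, above all tenascin-R, bind the other end of the lecticans and crosslink them. Together they build the perineuronal nets around fast-spiking neurons and the looser matrix around synapses and nodes of Ranvier, and astrocytes are a known source of several of them, brevican and neurocan among them.

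Depth ran from 2830746 to 14151670 reads per sample, with a median of 5552215. Values are read counts divided by a factor for each sample (normalized values below), and 3 reads, the level taken as the floor of detection, were worth 1.10 to 6.31 normalized units depending on the sample. The 10 astrocyte markers were detected in every sample, with Slc1a2 the highest of them. Their summed value was 234813 to 280678 in OB, 273835 to 466887 in HC, 562174 to 636700 in CX and 97652 to 286916 in BS. Choroid plexus markers, led by Ttr, summed to 103688 to 215278 in HC and 75262 to 358724 in BS but to 8164 or less in OB and CX, with Folr1 at 0 in OB. In BS replicate 1 (358724 against 97652) and BS replicate 3 (178197 against 166734) the choroid plexus sum was above the astrocyte sum. The ribosomal RNA entry Rn45s took 18.0 to 25.6% of reads in CX and BS and 0.966 to 2.93% in OB and HC. Differences between OB or HC and CX or BS cannot be told apart from this share.

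Promoters are shown for Hapln1 and Tnc, the members that were lowest in BS in every sample, for Ncan, the member with the highest level per kilobase (kb) of exon, and for Vcan, the protein-coding neighbour of Hapln1, whose levels had a different order. Each line holds 300 bases around the RefSeq start site on GRCm38.p6, 5′ to 3′ on the strand of the gene. The windows are chr13:89540386-89540685 (plus strand) for Hapln1, chr4:64046966-64047265 (minus) for Tnc, chr8:70120795-70121094 (minus) for Ncan and chr13:89742463-89742762 (minus) for Vcan. RefSeq promoters were matched for 9 of the 10 members, all but Hapln4. Capitals mark TAATTA, a homeodomain core, and TTGGCA, a nuclear factor I half-site, both searched on both strands and chosen after the values were seen.
Hapln1: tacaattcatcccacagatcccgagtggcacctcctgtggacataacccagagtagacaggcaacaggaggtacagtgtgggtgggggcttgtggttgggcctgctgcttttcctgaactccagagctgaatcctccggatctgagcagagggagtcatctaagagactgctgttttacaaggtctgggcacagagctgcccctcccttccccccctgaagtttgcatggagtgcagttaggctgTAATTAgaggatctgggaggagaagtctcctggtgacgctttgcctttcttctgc
Tnc: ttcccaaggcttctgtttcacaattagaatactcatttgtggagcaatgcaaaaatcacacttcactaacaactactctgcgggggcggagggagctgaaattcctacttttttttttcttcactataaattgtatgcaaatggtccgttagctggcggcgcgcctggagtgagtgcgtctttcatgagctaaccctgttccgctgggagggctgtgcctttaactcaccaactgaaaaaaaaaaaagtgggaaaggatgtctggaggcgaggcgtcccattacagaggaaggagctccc
Ncan: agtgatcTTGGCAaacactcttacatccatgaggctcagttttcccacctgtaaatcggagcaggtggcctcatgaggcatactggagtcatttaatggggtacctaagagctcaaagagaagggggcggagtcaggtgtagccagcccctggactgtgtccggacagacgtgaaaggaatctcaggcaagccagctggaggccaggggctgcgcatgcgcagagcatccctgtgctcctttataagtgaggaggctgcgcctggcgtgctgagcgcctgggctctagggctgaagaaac
Vcan: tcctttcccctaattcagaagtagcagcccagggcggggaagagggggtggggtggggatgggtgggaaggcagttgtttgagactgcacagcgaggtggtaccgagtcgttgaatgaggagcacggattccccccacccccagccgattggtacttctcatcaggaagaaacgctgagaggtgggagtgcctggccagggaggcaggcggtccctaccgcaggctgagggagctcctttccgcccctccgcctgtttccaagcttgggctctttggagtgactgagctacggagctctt
TAATTA was found in 1 of the 9 promoters, that of Hapln1 at position -5 from the start, and in 5.31% of all 27025 RefSeq promoters of this length. TTGGCA was found in 1 of the 9, that of Ncan at position -243, and in 14.4% of all promoters. The Hapln1 window held 3 CpG and the Vcan window 12. A match is a description of letters and not a binding site.

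Hapln1, the link protein of cartilage and of perineuronal nets, was abundant in the sorted cells of OB, HC and CX and close to absent from those of BS. Its normalized values were 660, 902 and 991 in OB, 729, 1000 and 1124 in HC, 1681 and 1418 in CX, and 41.0, 30.1 and 10.5 in BS. Every BS sample lay below every other sample, with 59 reads in the 3 BS samples against 3590 in OB, 5325 in HC and 2263 in CX. The BS mean, 27.2 ± 15.4 (SD, n = 3), was 0.0243 of the mean of the other region means, and the log2 difference was -5.43 (SE 0.30). Under the 14 other settings this difference stayed between -5.82 and -4.89. In bulk samples, fewer cells of a type and less RNA per cell cannot be told apart. Within each sample, Hapln1 was 0.295 ± 0.055 of Bcan in OB (SD, n = 3), 0.485 ± 0.020 in HC, 0.403 ± 0.038 in CX (n = 2) and 0.0128 ± 0.0096 in BS, a ratio that reuses the BS level by which the list was chosen. The astrocyte marker sum, led by Slc1a2, was also lowest in a BS sample. By gene, Slc1a2, Slc1a3, Gja1 and Sox9 had their lowest region mean in BS, while Aqp4 (14007) and S100b (4715) had their highest there. Aldh1l1, Aldoc, Gfap and Fgfr3 had neither extreme in BS. The part of these markers in the result was not tested.

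Among the other 3 regions Hapln1 was highest in CX (1550 ± 186, n = 2), then HC (951 ± 202, n = 3) and OB (851 ± 171, n = 3). Both CX samples lay above all OB and HC samples, while OB and HC overlapped. None of the 3 pairs passed the limma test. OB minus CX was -0.88 on the log2 scale (95% interval -1.73 to -0.026, adjusted p = 0.2903). It passed in DESeq2 (0.0432) and in a limma fit of those regions alone (0.00461), and not in edgeR. HC minus CX was -0.72 (95% interval -1.58 to 0.13, adjusted p = 0.5046) and OB minus HC was -0.16 (95% interval -0.92 to 0.61, adjusted p = 0.8892).

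**Figure D1:**
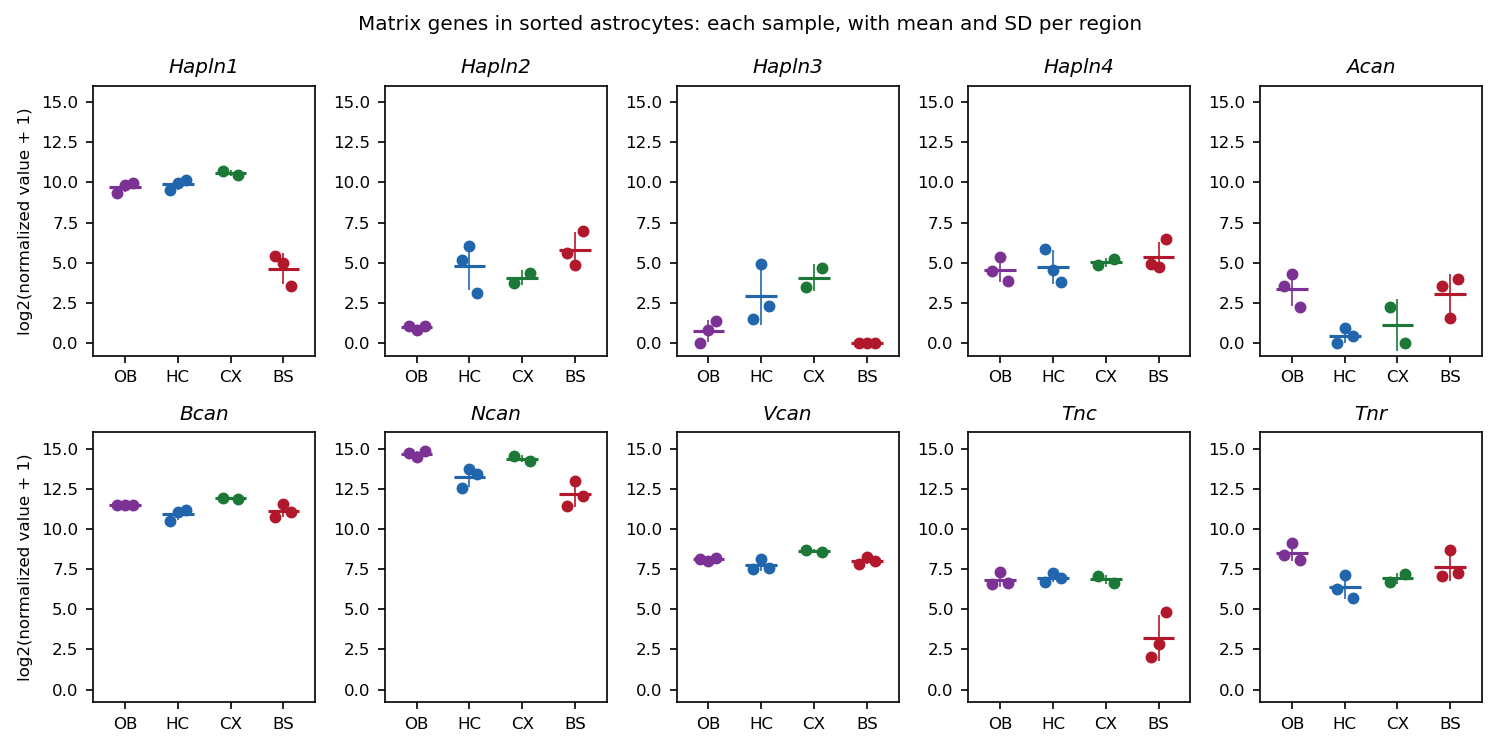
Each panel plots log2(normalized value + 1) of a member gene against region, with a point for each sample, a horizontal line for the mean and a vertical line for the SD of the log2 values. Hapln1 and Tnc are the panels in which all 3 BS samples sit below all 8 other samples, Ncan is lower in HC than in OB and CX, and Hapln2 is near the floor in OB.

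Hapln2, known as Bral1 and placed at nodes of Ranvier along myelinated axons, had its highest mean in BS and its lowest in OB. It was at 1.09, 0.789 and 1.08 in OB, each at or under the floor, with 4 reads in all. It reached 35.6, 63.9 and 7.70 in HC, 12.6 and 19.9 in CX, and 48.4, 28.0 and 124 in BS. All 3 OB samples lay below every other sample, and HC, CX and BS overlapped. Hapln2 was lower in OB than in the mean of the other regions (log2 difference -3.91, SE 0.64, adjusted p = 0.0008585, limma) and lower than in HC (-3.79, SE 0.77, adjusted p = 0.005809). At so few reads the fitted size depends on the pseudocount, and it ran from -5.17 to -3.17 against HC over the settings tried. By reads, HC was 27.6 times OB, with a 95% counting interval of 10.6 to 103. Against CX the difference of -3.09 missed the threshold (adjusted p = 0.05181), and it passed with a pseudocount of 0.25 (0.03575), with edgeR (0.04714), with DESeq2 (0.008273), without HC replicate 3 (0.022) and without BS replicate 2 (0.04015).

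The summed oligodendrocyte markers, like Hapln2, were lowest in OB and highest in BS, and all 10 were detected in every sample of HC, CX and BS and 9 in every sample of OB. Their sum, led by Mbp, was 9752 to 16131 in OB, 18665 to 40097 in HC, 19296 to 20598 in CX and 52522 to 90420 in BS. HC replicate 3 had the lowest HC sum and BS replicate 3 the highest BS sum, as for Hapln2. The highest HC sum (HC replicate 1), the lowest BS sum (BS replicate 1) and the higher CX sum (CX replicate 1) fell in other samples than for Hapln2. The part of these markers in the Hapln2 result was not tested.

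Hapln3, a link protein mainly known outside the brain, was rare. It had 0 reads in BS, 4 reads in OB, 46 in HC and 24 in CX, and 32 of the HC reads came from HC replicate 2 (29.2, against 1.87 and 4.04 in the other HC samples). CX was at 10.1 and 24.5, and its mean of 17.3 was at least 3.35-fold higher than the mean BS floor of 5.16 (3 reads per library). Hapln4, known as Bral2 and linked to brevican at inhibitory synapses, had means between 25.1 ± 13.7 in OB and 47.3 ± 33.8 in BS (n = 3 each), and all 4 regions overlapped. Neither gene passed the limma test in any comparison made.

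Ncan, neurocan, differed more between regions than Bcan or Vcan, with a highest region mean 5.19-fold the lowest. Its normalized values were 26588, 23091 and 28958 in OB, 5932, 13313 and 10837 in HC, 23389 and 18842 in CX, and 2769, 8170 and 4218 in BS. OB and CX overlapped, HC lay below both, and HC and BS overlapped. Ncan was higher in OB than in the mean of the other regions (log2 difference 1.43, SE 0.30, adjusted p = 0.006204) and 2.61-fold higher in OB than in HC (1.46, SE 0.36, adjusted p = 0.0206). The first call was lost with the other regions pooled as a single group (adjusted p = 0.1322). The second was lost when OB replicate 1, 2 or 3 was left out (adjusted p = 0.07143, 0.0576 and 0.08808), without HC replicate 1 (0.09323) and without the variance trend (0.08854), with log2 differences of 1.12 or more in each. OB minus CX was 0.31 (95% interval -0.55 to 1.18, adjusted p = 0.7846, limma), so the first call does not set OB apart from CX. In BS, the log2 difference of Ncan from the mean of the other regions was -1.92 (SE 0.30), and this low level is part of the mean in the first call.

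Bcan, brevican, and Vcan, versican, varied far less. Bcan was 2882 ± 55.5 in OB, 1967 ± 433 in HC, 3844 ± 94.1 in CX and 2309 ± 665 in BS, and the highest mean was 1.95-fold the lowest. Vcan was 273 ± 18.3, 216 ± 56.0, 397 ± 28.2 and 260 ± 37.3 in the same order, a 1.84-fold range. Both were highest in CX, where the 2 samples lay above all 9 others, and both were lowest on average in HC. The CX difference from the other regions was 0.73 for Bcan (SE 0.20, adjusted p = 0.06132) and 0.69 for Vcan (SE 0.20, adjusted p = 0.07278). HC minus CX was -0.99 for Bcan (95% interval -1.50 to -0.48, adjusted p = 0.05732) and -0.90 for Vcan (-1.40 to -0.40, adjusted p = 0.08363). All 4 differences missed the threshold in limma and passed it in DESeq2. In CX, Bcan passed without BS replicate 2 (0.009472), and Vcan passed without BS replicate 2 (0.03684) or HC replicate 2 (0.0369). In HC against CX, Bcan passed without BS replicate 1 (0.02506) or BS replicate 2 (0.01301), and Vcan without HC replicate 2 (0.03951). The astrocyte marker sum was likewise highest in CX, as were the means of its markers except Gfap, Aqp4 and S100b. Gfap was lowest there (1099, against 3506 in OB), and Aqp4 and S100b were highest in BS. The part of these markers was not tested.

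Acan, aggrecan, the lectican of mature nets that neurons are known to make, was near the floor. It had 41 reads in OB (10.9, 18.9 and 3.77), 18 in BS (10 in BS replicate 1, 1 in BS replicate 2 and 7 in BS replicate 3), 3 in CX and 2 in HC. OB minus HC was 2.92 on the log2 scale (SE 0.97, adjusted p = 0.09041), and the ratio by reads was 27.5 with a 95% counting interval of 7.14 to 235. DESeq2 called it (adjusted p = 0.01578).

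Tnr, tenascin-R, a crosslinker of lecticans in nets, was highest in OB. It stood at 338, 552 and 267 in OB, 74.3, 140 and 51.7 in HC, 102 and 143 in CX, and 132, 403 and 152 in BS. OB lay above all HC and CX samples, but BS replicate 2 lay within the OB range. Tnr was higher in OB than in the mean of the other regions (log2 difference 1.55, SE 0.36, adjusted p = 0.01087) and 4.35-fold higher than in HC (2.16, SE 0.43, adjusted p = 0.004786). The first call was lost without OB replicate 2 (1.25, adjusted p = 0.1053), without the variance trend (0.06269) and with the other regions pooled (0.07682). OB minus CX was 1.60 (95% interval 0.59 to 2.62, adjusted p = 0.07157), and without BS replicate 2 it passed (0.02274). HC differed from the other regions by -1.34, short of the threshold (adjusted p = 0.07459). Leaving out BS replicate 1 brought it past the threshold (0.03694).

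Oligodendrocyte precursors are a known source of Tnr, and their 7 markers summed to 361 to 444 in OB, 260 to 348 in HC, 248 to 304 in CX and 362 to 823 in BS. The 823 belonged to BS replicate 2, the BS sample with the highest Tnr. Among the BS samples it also had the highest astrocyte marker sum (286916), the lowest choroid plexus sum (75262) and the highest Bcan, Ncan and Vcan. Hapln1 was highest in BS replicate 1, and Hapln2, Hapln4, Acan and Tnc in BS replicate 3. Lhfpl3 was the highest of them in OB and BS (means 132 and 295, against 52.9 in HC and 58.5 in CX), whereas Pdgfra was the highest in HC and CX and was lower in OB (123) than in HC (146), as was Gpr17 (36.8 against 50.1). OB also held the highest sums of olfactory ensheathing glia markers (13926 to 18498, against 1415 or less elsewhere) and of neuroblast and progenitor markers (933 to 1202, against 567 or less), of which Dlx1 and Dlx2 were at 0 in BS. The part of these cells in the OB values of Tnr and Ncan was not tested.

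Tnc, tenascin-C, a glycoprotein of developing and reactive astrocytes, shared with Hapln1 the low BS level but not the higher level in CX. It was 92.3, 160 and 99.1 in OB, 103, 151 and 125 in HC, 132 and 99.7 in CX, and 3.15, 6.01 and 27.4 in BS, where 2 of the 3 samples were at the floor and 19 reads were counted in all. Every BS sample lay below every other sample, and OB, HC and CX overlapped throughout. The BS difference was -3.66 on the log2 scale (SE 0.46), between -4.46 and -3.07 under the other settings. The pairs without BS differed by 0.13 or less in size, with 95% intervals of -1.31 to 1.04 for OB minus HC, -1.33 to 1.30 for OB minus CX and -1.19 to 1.43 for HC minus CX. Tnc in OB exceeded the mean of the other regions by 1.16 (SE 0.46, adjusted p = 0.1422), and this passed in DESeq2 (0.03033) and without BS replicate 3 (0.01029). That mean includes BS, and OB minus HC was -0.13 and OB minus CX -0.013. The comparison thus carries the BS level of Tnc, and nothing about OB is read from it.

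In the BS comparison, 6 of the 10 members were lower and 4 higher than the mean of the other regions. After Hapln1 and Tnc came Hapln3 (-2.58), Ncan (-1.92), Bcan (-0.30) and Vcan (-0.14), and on the other side Tnr (0.38), Hapln4 (0.60), Acan (1.37) and Hapln2 (2.54). All are log2 differences fitted with a pseudocount of 1. Without BS replicate 2 the sign of Tnr turned (-0.12), and 7 members were then lower. Hapln1 and Tnc, 2 of 10, had every BS sample below every other sample, beside 4.19% of all genes tested. No member had every BS sample above all others. Since the level of Hapln1 in BS was part of the choice, nothing is read from these counts.

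**Figure D2:**
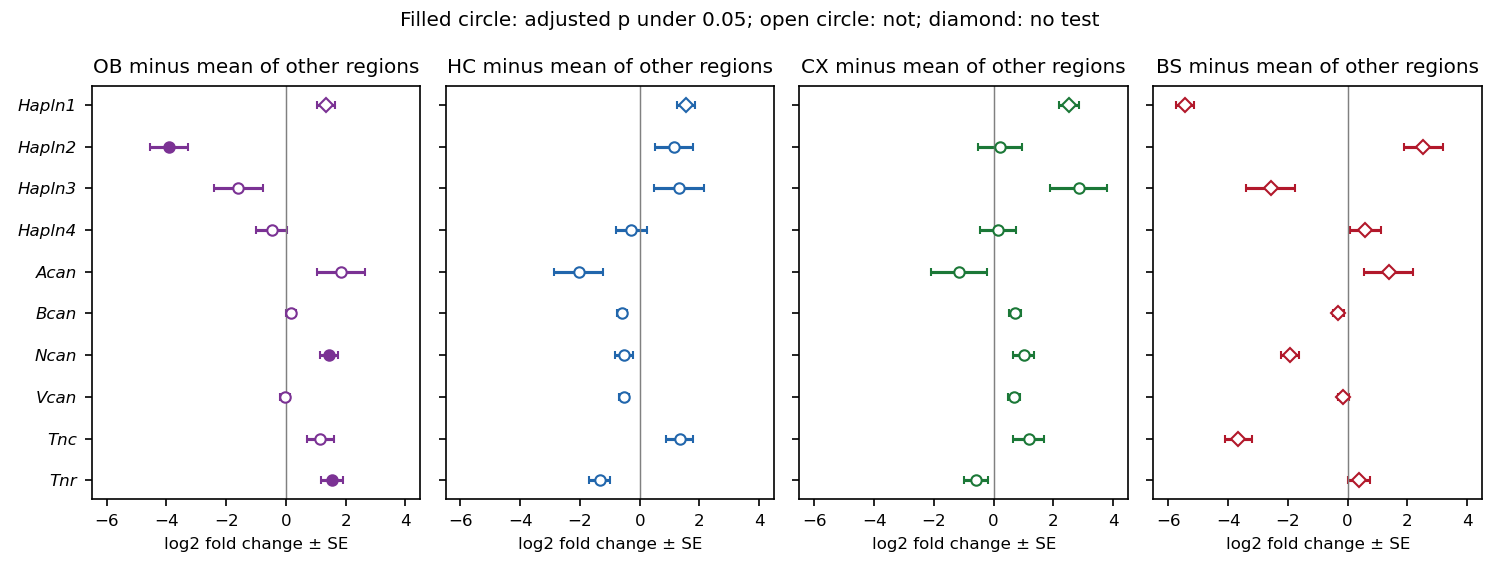
Each panel plots, for the 10 members, the log2 difference of a region from the mean of the other 3 region means, with bars of 1 SE. Filled circles (Hapln2, Ncan and Tnr in OB) passed an adjusted p of 0.05, open circles did not, and diamonds carry no test, which covers all of BS and Hapln1 in every panel.

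Counted over members, OB differed from the mean of the other regions, BS included, in 3 of 9, with Ncan and Tnr higher and Hapln2 lower. Of all genes tested, 4.92% were higher and 4.77% lower in OB. The median difference of the 9 members was 0.17, against 0.016 over all genes. OB against HC gave the same 3 names among 10 members, in the same directions, beside 3.63% of genes higher and 3.49% lower. These comparisons share the OB samples. edgeR called these 3 in each, beside 1291 of 13875 genes against the mean of the other regions and 1032 against HC. DESeq2 also called Tnc against the mean of the other regions, which includes BS, and Acan against HC. It called 1785 and 1417 of 13858 genes in the same order of comparisons.

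No member passed in HC or CX against the other regions in limma, beside backgrounds of 1.08% higher and 0.944% lower for HC and 1.97% higher and 2.18% lower for CX. In each, 5 of 9 had an unadjusted p under 0.05, and the share of all genes at that level is not given here. No member was called by edgeR, beside 326 genes in HC and 425 in CX of 13875. DESeq2 called 3 in HC (Bcan, Tnc, Tnr), beside 639 of 13858 genes, and 2 in CX (Bcan, Vcan), beside 879 of 13051. The call of Tnc in HC is against a mean that includes BS. The members' median was -0.52 in HC and 0.69 in CX, against 0.019 and -0.026 over all genes. For OB against CX the limma count was 0 of 10 beside 4.91% of all genes, with 5 at an unadjusted p under 0.05. There edgeR called 1 (Hapln2), beside 570 of 13875 genes, and DESeq2 called 3 (Hapln1, Hapln2, Tnr), beside 991 of 13589. For HC against CX the limma count was 0 of 10 beside 1.23%, with 3 at an unadjusted p under 0.05. Here edgeR called 0, beside 125 of 13875 genes, and DESeq2 called 2 (Bcan, Vcan), beside 420 of 13589. Leaving out single libraries changed these counts. Without BS replicate 1 the HC count was 2 and HC against CX was 1. Without BS replicate 2 the CX count was 3, OB against CX 2 and HC against CX 1. Without BS replicate 3 the HC and CX counts were 1 each. Leaving out HC replicate 2 gave 1 in CX and 1 in HC against CX, and leaving out HC replicate 3 gave 1 in OB against CX.

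Ratios inside a sample do not depend on its scaling factor. Ncan was 9.10 ± 1.07 times Bcan in OB (n = 3), 4.99 ± 1.07 in HC (n = 3), 5.48 ± 0.70 in CX (n = 2) and 2.08 ± 0.56 in BS (n = 3), as ratios of normalized values not corrected for length. The OB samples (7.91 to 9.96) lay above all others and the BS samples (1.59 to 2.69) below all others. Vcan to Bcan was 0.0950 ± 0.0074, 0.111 ± 0.024, 0.103 ± 0.0048 and 0.116 ± 0.016 in OB, HC, CX and BS, so these 2 lecticans kept overlapping ratios. Tnr to Bcan was 0.134 ± 0.050 in OB and 0.0930 ± 0.034 in BS, above 0.0460 ± 0.021 in HC and 0.0319 ± 0.0083 in CX. Tnc to Bcan was 0.00552 ± 0.0063 in BS and 0.0301 to 0.0649 on average elsewhere. The ratios were not tested.

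**Figure D3:**
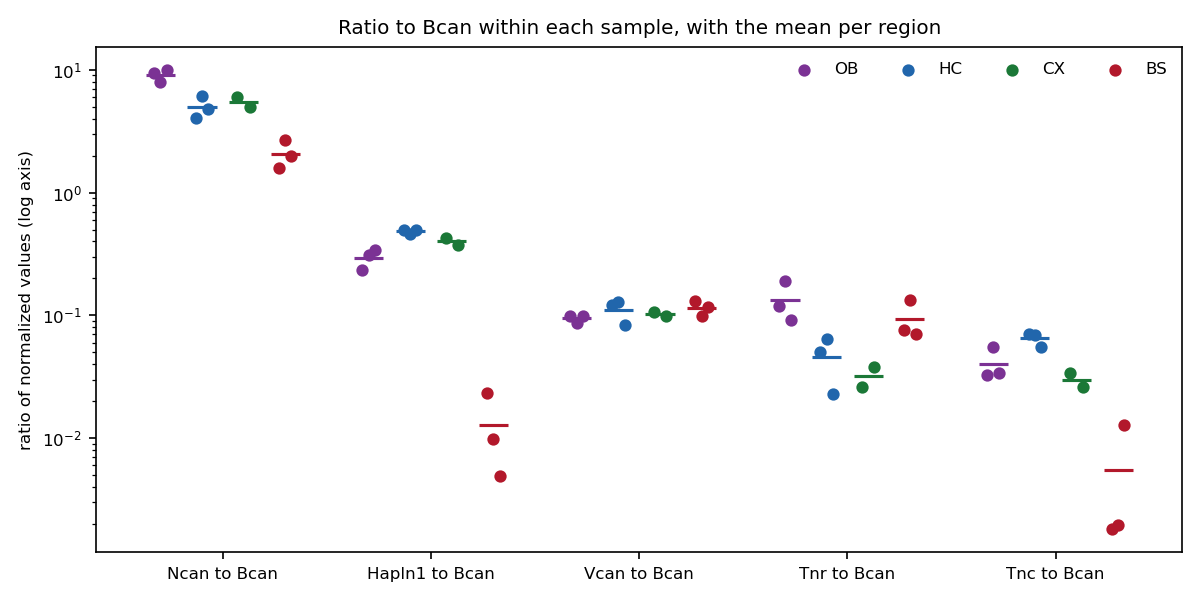
The ratio of Ncan, Hapln1, Vcan, Tnr and Tnc to Bcan within each sample is plotted on a log axis, with a point per sample and a line for the mean of each region. Vcan to Bcan is nearly level across regions, whereas Ncan, Hapln1 and Tnc to Bcan are lowest in all 3 BS samples.

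Per kilobase of exon, Ncan and Bcan made up most of the summed level of the 10 transcripts in every region. Ncan took 79.7% of it in OB, 66.3% in HC, 69.6% in CX and 51.9% in BS, and Bcan took 15.5%, 23.0%, 22.4% and 42.0%. Hapln1 came next after Ncan and Bcan per kilobase in OB, HC and CX (144 ± 29.0, 161 ± 34.2 and 263 ± 31.5 normalized units per kb) and came after 6 other members in BS (4.61 ± 2.62), where it held 0.340% of the sum. Hapln2 followed Ncan and Bcan in BS, with 28.2 ± 21.4 per kb and 2.08% of the sum. In BS, Ncan (702 ± 389) and Bcan (568 ± 164) lay within each other's SD per kb, and dividing by the longest transcript in place of all exons put Bcan first (735 against 702).

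**Figure D4:**
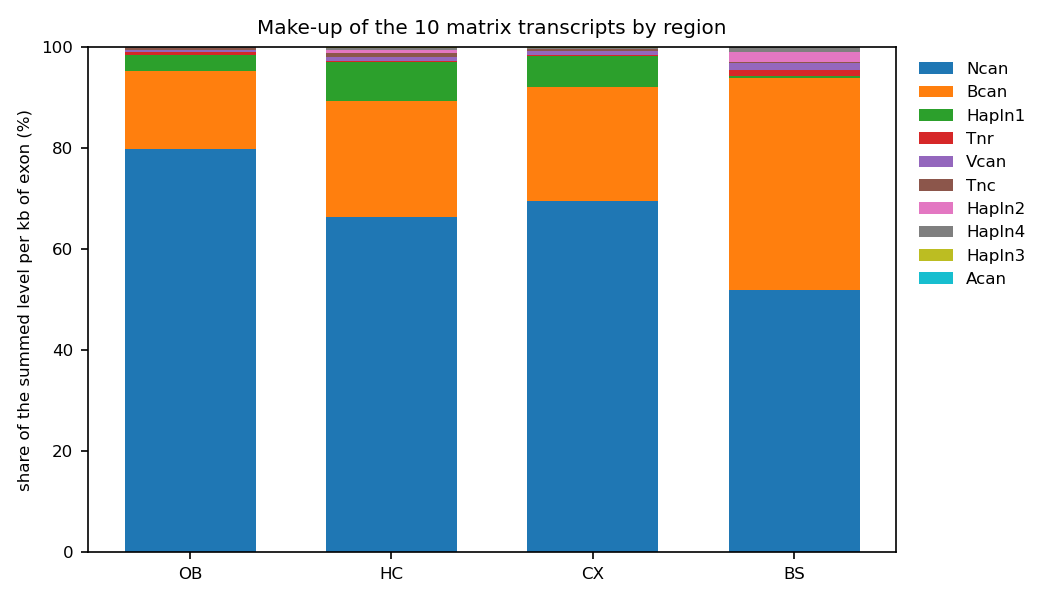
Stacked bars give, for each region, the percent of the summed normalized level per kb of exon held by each of the 10 members, from region means. Ncan shrinks from 79.7% in OB to 51.9% in BS, Bcan reaches 42.0% in BS, and Hapln1 is visible in OB, HC and CX and drops to 0.340% in BS.

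Each link protein gene lies next to a lectican gene in the mouse genome, and the region means of neighbours ran in different orders. Parts of each order are not firm, since samples of some adjacent regions overlapped for every gene, and of all regions for Hapln4. Hapln1 (GRCm38, chr13:89539796-89611652, plus strand) and Vcan (chr13:89655312-89742509, minus) are 43659 bases apart, yet Hapln1 ran CX, HC, OB, BS from high to low and Vcan CX, OB, BS, HC. Hapln1 to Vcan was 3.12 ± 0.68 in OB, 4.52 ± 1.22 in HC, 3.90 ± 0.19 in CX and 0.107 ± 0.070 in BS. Hapln2 (chr3:88021750-88027583) and Bcan (chr3:87987531-88000230), both on the minus strand, are 21519 bases apart, and BS led for Hapln2 while CX led for Bcan. Hapln4 (chr8:70083457-70090862, plus) ends 2222 bases from Ncan (chr8:70093085-70120873, minus), with the highest means in BS and OB respectively. Hapln3 (chr7:79115102-79131018, minus) and Acan (chr7:79053483-79115099, plus) end 2 bases from each other, both too low for their order to be firm. No annotated protein-coding gene lies between the members of any pair. Tnc (chr4:63959785-64047015, minus) shares exon bases with 8030451A03Rik and Tnr (chr1:159523769-159931729, plus) with the antisense gene Gm38039. Whether the counting used strand is not given in the sources used here, so reads of these overlaps cannot be assigned.

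The 3 genes whose log2 values were most like Hapln1 over the 11 samples, among 12641 genes with a mean of at least 10, were Lhx2 (Pearson r = 0.983), St6galnac5 (0.982) and Btg1 (0.976). Lhx2 encodes a transcription factor of forebrain development, St6galnac5 a sialyltransferase and Btg1 an antiproliferative protein. Lhx2 averaged 1246 in OB, 1525 in HC, 2143 in CX and 4.07 in BS, the same order as Hapln1. Of the members, Tnc was the closest to Hapln1 (r = 0.851, rank 224), followed by Ncan (0.758, rank 552), Bcan (0.332) and Vcan (0.184). Tnr (-0.18), Hapln4 (-0.46) and Hapln2 (-0.56) ran the other way. The samples share regions, so these values describe the split of BS from the rest and carry no p.

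The related matrix genes were counted from 6 lists with 76 genes, of which 66 were tested. In OB, 6 were higher and 7 lower (median log2 difference of the 66 genes -0.13, against 0.016 over all genes), beside 4.92% and 4.77% of all genes. In HC 0 passed in limma, beside 1.08% higher and 0.944% lower of all genes. There 9 had an unadjusted p under 0.05, a level for which no share of all genes is given here. Of the related genes, edgeR called 0 in HC, beside 326 of 13875 genes, and DESeq2 called 2, beside 639 of 13858. In CX 2 were higher and 1 lower, beside 1.97% and 2.18%, and in BS 6 were higher and 5 lower, beside 7.06% and 6.95% of all genes. The OB count was 5 without OB replicate 1, 5 without OB replicate 2, 3 without OB replicate 3 and 7 without CX replicate 2. The CX count was 0 without CX replicate 1, 1 without OB replicate 2, OB replicate 3 or HC replicate 2, 5 without HC replicate 3 or BS replicate 1 and 9 without BS replicate 2. The BS count was 7 without BS replicate 1. By list, the median BS difference was 0.18 for hyaluronan genes, -0.25 for chondroitin sulfate synthesis, 0.71 for other proteoglycans, 0.40 for proteases and inhibitors and 0.15 for receptors, against 0.014 over all genes. The OB medians were -0.28, 0.19, 0.26, -0.70 and -0.32 in the same order.

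Among genes that make, bind or break down hyaluronan, 8 of 12 were tested and Has3, a hyaluronan synthase, was the only one called in limma. It was 21.9 ± 6.97 in BS, against 5.80 ± 8.65 in OB, 2.07 ± 2.20 in HC and 1.26 ± 1.78 in CX (log2 difference 3.09, SE 0.86, adjusted p = 0.0264). The call was lost without BS replicate 1 (adjusted p = 0.1043), BS replicate 3 (0.1123) or CX replicate 2 (0.05883), and also with a pseudocount of 0.25 (0.05039), with edgeR (0.06276) and with the other regions pooled (0.05477). The hyaluronidases Hyal1 (0.97 in CX, adjusted p = 0.1006) and Hyal2 (-0.97 in OB, adjusted p = 0.1732) did not pass, and Hyal1 passed without BS replicate 2 (0.01993).

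Of 22 genes for chondroitin sulfate synthesis and sulfation, 21 were tested. In OB, Chsy3 and Chst11 were higher and Chsy1 lower, and in BS Csgalnact1 and Chst11 were lower. Chst11, a chondroitin 4-O-sulfotransferase, was 368 ± 73.5 in BS and 614 to 792 on average elsewhere (log2 difference -0.87, SE 0.18, adjusted p = 0.004933). Its OB call (792 ± 38.3) is against a mean that includes BS, with 614 ± 173 in HC and 627 ± 111 in CX. Chsy3, a chondroitin synthase, was 25.4 ± 8.83 in OB and 4.02 or less on average elsewhere (3.02, SE 0.81, adjusted p = 0.02628). That call was lost without OB replicate 1 (0.08747), 2 (0.1503) or 3 (0.0964) and without CX replicate 2 (0.05151), and with a pseudocount of 0.25 (0.05745). Csgalnact1, which starts the chain, was 0.74 higher in CX, short of the threshold (adjusted p = 0.05168), and it passed without HC replicate 3 (0.02253) and without BS replicate 2 (0.023).

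All 11 other proteoglycans were tested. Cspg5, neuroglycan C, had a BS level far below the rest, as Hapln1 and Tnc did. It was 186 ± 89.9 in BS, 965 ± 127 in OB, 1302 ± 389 in HC and 2402 ± 144 in CX, and the BS samples lay below all others (log2 difference -3.05, SE 0.26, adjusted p = 1.759e-06). Cspg5 was also higher in CX (2.02, SE 0.29, adjusted p = 0.001213), against a mean that includes BS. By sample, CX (2300 to 2504) also lay above OB and HC (1560 or less). Ptprz1, which gives rise to phosphacan and binds tenascins and stands in the receptor list too, was lower in BS (-1.28, SE 0.32, adjusted p = 0.01349). Spock3, a testican, was higher in BS (316 ± 56.6, against 131 or less on average elsewhere, difference 1.78, SE 0.37, adjusted p = 0.004576). Smoc1 was higher in OB (199 ± 29.0, against 92.2 or less, difference 1.39, SE 0.31, adjusted p = 0.009439), a call lost without OB replicate 3 (0.07366). Bgn was higher and Spock1 lower in OB, and Dcn was higher in BS and lower in CX. Dcn ranged from 120 to 1667 in BS, and its BS call was lost in 11 settings, with an adjusted p of 0.3334 without BS replicate 1. The CX call of Dcn was lost in 9, with 0.6287 without CX replicate 1. Dcn is also 1 of the 6 fibroblast markers, whose sum was 507 to 2802 in BS and 500 or less elsewhere, and their part was not tested.

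Of 14 proteases and inhibitors, 10 were tested. Adamts4, which cleaves brevican and aggrecan, was lower in OB (19.6 ± 10.2, difference -1.77, SE 0.38, adjusted p = 0.006682) and higher in BS (99.2 ± 25.3). It was 90.9 ± 34.3 in HC and 30.5 ± 2.33 in CX, and the mean set against OB includes BS. Its OB call was lost without OB replicate 3 (0.05845). Adamts5, a related aggrecanase, was higher in BS (110 ± 32.4, against 38.2 or less on average elsewhere, difference 1.73, SE 0.38, adjusted p = 0.006845), and this was lost without BS replicate 1 (0.05334). Timp2, a metalloprotease inhibitor, was lower in OB (632 ± 95.2, against 1237 or more on average elsewhere, difference -1.06, SE 0.23, adjusted p = 0.006483), a call lost without OB replicate 3 (0.05284) and without the variance trend (0.05349). Mmp14 was higher in OB.

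Of 16 receptors for tenascins and sulfated chains, all were tested. Nfasc, neurofascin, was higher in BS (1654 ± 365, against 611 or less on average elsewhere, difference 1.59, SE 0.19, adjusted p = 6.084e-05) and lower in OB. Ptprs, a receptor phosphatase for chondroitin sulfate, was lower in BS (799 ± 204, against 1446 or more, difference -1.07, SE 0.16, adjusted p = 0.0003514) and higher in OB. The OB calls of Nfasc and Ptprs are against a mean that includes BS. Nfasc averaged 451 ± 135 in OB, 611 ± 76.7 in HC and 600 ± 57.3 in CX. Ptprs averaged 1864 ± 211 in OB, 1446 ± 222 in HC and 1691 ± 26.4 in CX. Their tests between pairs of regions are not given here. Itgav, an integrin subunit, was lower in OB (1757 ± 176, difference -0.82, SE 0.18, adjusted p = 0.00691) and higher in CX, and its OB call was lost without OB replicate 2 (0.05791) and with the other regions pooled (0.09784). Rtn4rl1 was lower in OB. Of the other 2 tenascins, Tnxb was at 16.4 ± 15.1 in BS (difference 1.42, SE 0.99, adjusted p = 0.3985) and Tnn was too low to test. The Mbp-led sum of oligodendrocyte markers was highest in BS, as were Nfasc and Adamts4, although Cldn11 had its highest mean in HC (208, against 150 in BS) and Aspa in OB (242, against 182 in BS). The part of these markers in the results was not tested.

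**Figure D5:**
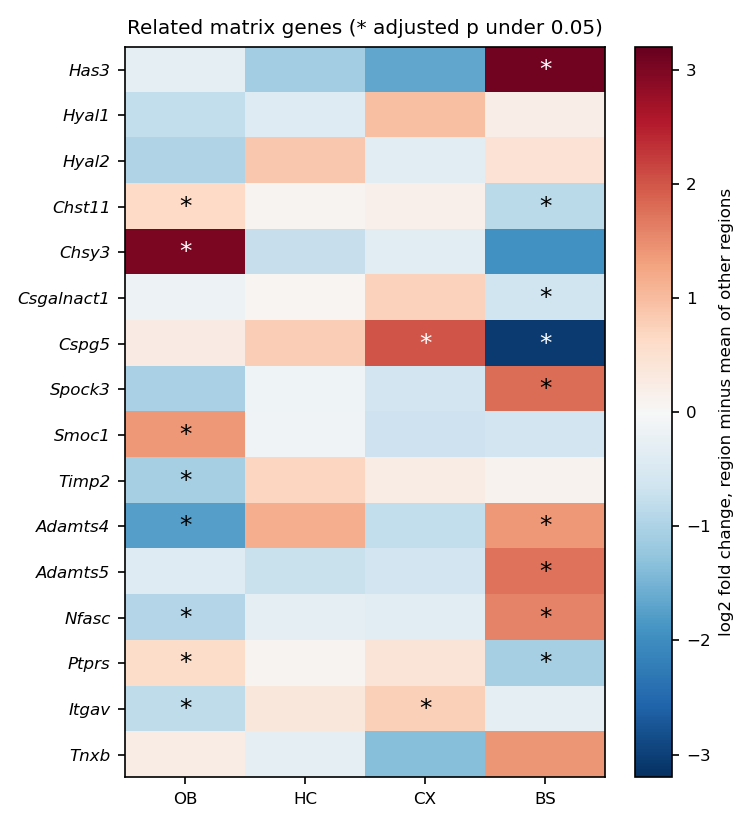
Colour gives the log2 difference of each region from the mean of the other 3 region means for the 16 named genes of the related lists, and an asterisk marks an adjusted p under 0.05. Cspg5 is the darkest blue in BS (-3.05), while Has3 in BS (3.09) and Chsy3 in OB (3.02) are the darkest red.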

How the data were processed

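The authors sequenced NuGEN Trio libraries of sorted Aldh1l1-eGFP cells. Per the submitters' processing notes, FastQC, STAR 2.5.0a and DESeq2 1.20.0 were used on mm10. The authors counted reads with Rsamtools and GenomicFeatures over UCSC transcripts from the iGenomes collection. The deposited values are a signal per gene, counts divided by 1 factor per sample. All values were whole multiples of what 1 read is worth (100% in each sample), so reads were recovered for the filter, the depth and the count tests.

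Log2(value + 1) was tested in R 4.3.3 by limma 3.58.1, with a variance trend and a mean per region, over all 11 samples. Fold changes on this scale understate those of low genes. Genes passed edgeR's filterByExpr on recovered reads (13875 genes), and p-values were adjusted over all of them by Benjamini-Hochberg, two-sided, called under 0.05. Each region was set against the mean of the other 3 region means, and OB, HC and CX in pairs. edgeR 4.0.16 quasi-likelihood, DESeq2 1.42.0, a pseudocount of 0.25, no filter, no trend, TMM scaling, medians, only the 2 regions of a pair, the longest transcript, the other regions pooled as the study did, the study's thresholds (unadjusted p 0.01, 1.5-fold), a replicate block and each sample left out were alternatives. The limma step was tested on simulated data.

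The members and the gene and marker lists were chosen with earlier results of these data known. All members were named, with the 3 genes of lowest p in each related list (all genes of lists under 5), the genes called in each list, and, of the 5 genes most like Hapln1, the first 3, the others being not reported here. Marker lists of neurons, endothelial and mural cells and microglia were also summed. Their ranges over all regions were 1400 to 4007, 822 to 3852 and 1236 to 4272. Gene positions are from GENCODE M21 (GRCm38), and levels per kb use the union of exons. Intervals of log2 differences use the t quantile at limma's degrees of freedom. Intervals on reads are exact at 95% and, like the floor of 3 reads, cover counting error only.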

Additional observations from a re-analysis of the deposited data

How the results depend on the processing

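Of the named tests followed, only OB minus HC of Hapln1, never called, changed direction. It ran from -0.34 (without HC replicate 1) to 0.015 (without OB replicate 1) with single samples left out. Rescaling by TMM moved no median over all genes by more than 0.046 on the log2 scale. With the other regions pooled, OB members called fell from 3 to 1, and related genes called were 5 in OB, 0 in CX and 6 in BS. The deviations of same-numbered samples from their region means had r from -0.19 to 0.29 over 15 pairs, 3 over 0.1. Samples with unlike numbers were not compared, so whether the numbers pair samples cannot be told. With the replicate block, called members were 1 each in HC, CX, OB against CX and HC against CX, and related genes in CX were 5 in place of 3. DESeq2 called 3 members in HC, 2 in CX, 3 in OB against CX and 2 in HC against CX, and 2 related genes in HC. edgeR called 1 member in OB against CX and 1 related gene in CX. A pseudocount of 0.25 gave 1 member in OB against CX. Fitting only the 2 regions gave 3 in OB against CX and 1 in HC against CX. The study's thresholds gave 2 members in HC, 3 in CX, 3 in OB against CX and 2 in HC against CX, and 4 related genes in HC and 8 in CX. No trend gave 5 related genes in OB and 1 in CX, and no filter gave 1 in CX. Leaving out each sample gave 2 to 4 members in OB, 0 to 2 in HC, 0 to 3 in CX, 2 to 4 in OB against HC, 0 to 2 in OB against CX and 0 to 1 in HC against CX. Members lower in BS were 6 to 7. Related genes called were 3 to 16 in OB, 0 to 2 in HC, 0 to 9 in CX (0 without CX replicate 1, 9 without BS replicate 2) and 7 to 15 in BS. Where CX had 1 sample left, it was assumed to vary like the other groups. The causes of these changes were not tested. Acan, Hapln2 and Hapln3 in OB, HC, CX or BS rested on 0 to 4 reads per region in places, so depth limits their folds. CX has 2 samples. Over all genes, limma called 1345 in OB, 281 in HC, 576 in CX, 1945 in BS, 987 in OB against HC, 681 in OB against CX and 170 in HC against CX. Counts more than 1.5 times apart were 636, 0, 2 and 752 for the 4 regions with the others pooled, 639 in HC, 879 in CX and 420 in HC against CX with DESeq2, and 160, 231, 420 and 52 in HC, CX, OB against CX and HC against CX with no trend. No filter gave 100 in HC against CX, and fitting only the 2 regions gave 1364 in OB against CX. Leaving out each sample gave 794 to 1741 in OB, 140 to 407 in HC, 89 to 1043 in CX, 1155 to 2385 in BS, 646 to 1232 in OB against HC, 229 to 883 in OB against CX and 48 to 316 in HC against CX.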
